A study of Mus musculus with 6 samples.

Results

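Arrays of C2C12, a mouse myoblast line that can fuse into myotubes, differed in how strongly they showed a cellular stress programme, and that difference cut across the siRNA groups. Arrays were chosen by the level of Ddit3, which encodes the stress transcription factor CHOP: 3 of the 6 arrays had a log2 value above 8.5 and are called the high side, and 3 had a value below it and are called the low side. The high side holds Htt siRNA replicates 1 and 3 and scramble replicate 1, and the low side holds Htt siRNA replicate 2 and scramble replicates 2 and 3. All 6 arrays of the study are therefore used. The sides are a split made from the measured data, and the labels give no stress treatment. They also nearly follow the replicate number: both arrays numbered 1 are high, both numbered 2 are low, and only number 3 is split. Another difference between replicates 1 and 2 therefore cannot be told apart from the side. High against low was selected on these values, and all genes were read from the same arrays, so every high minus low value below is a description with no test.

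Both groups received siRNA by transfection and were grown in standard medium. The 3 Htt siRNA arrays come from cells given a pool of siRNAs against Htt, the gene for huntingtin, which the sample labels call a knockout. The 3 scramble arrays come from cells given scramble siRNA as the negative control. C2C12 is a single immortal line. The labels give no time after transfection and no culture stage, and do not say whether replicates were separate cultures, so p-values measure only the spread between these arrays, which may be technical. Within each group, values are listed in 1 order throughout: Htt siRNA 1, Htt siRNA 3 and scramble 1 (high side), then Htt siRNA 2, scramble 2 and scramble 3 (low side). Values are log2 expression levels made by RMA, a summary of probes into 1 level per gene, for 22180 genes whose median level over the arrays was 2.95. A high minus low difference is the mean of the difference within Htt siRNA and the difference within scramble, on the log2 scale.

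Cells meet unfolded protein in the endoplasmic reticulum (ER), lack of amino acids and other insults with a shared signalling system. Kinases such as PERK phosphorylate the initiation factor eIF2, which slows bulk protein synthesis and favours translation of the transcription factor ATF4. ATF4 and its target CHOP then switch on genes of amino acid supply, tRNA charging and redox balance, and feedback genes such as Trib3 and Ppp1r15a, while the sensors ATF6 and IRE1 raise ER chaperones. The same response is known to restrain growth, and division genes are controlled in turn by the E2F family of transcription factors. Muscle precursors are known to use parts of it during differentiation.

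Promoter stretches of some genes that separate the sides are printed here with letters that match sites of these regulators. RefSeq promoters of the GRCm38.p6 assembly, running from 250 bases before to 50 bases after each start, were available for 16990 of the 22180 genes and were searched on both strands for the C/EBP-ATF composite element TGATGNAA, for the ER stress response element (ERSE, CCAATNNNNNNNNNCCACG), and for an E2F site (TTTCCCGC or TTTGGCGC). No motif contains another. Each line below gives a stretch of 100 bases upstream of the start, taken next to it or around the match, on the gene's own strand, 5′ to 3′, with the match in capitals. The first set carries the C/EBP-ATF element in a stress effector and a transcription factor gene used as markers, and in enzymes of amino acid and phosphoenolpyruvate metabolism: Chac1 (chr2:119351003-119351102, plus strand), Atf3 (chr1:191183390-191183489, minus strand), Asns (chr6:7693210-7693309, minus strand) and Pck2 (chr14:55540117-55540216, plus strand).
Chac1: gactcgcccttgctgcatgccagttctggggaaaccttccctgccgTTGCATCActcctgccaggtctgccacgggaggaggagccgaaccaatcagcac
Atf3: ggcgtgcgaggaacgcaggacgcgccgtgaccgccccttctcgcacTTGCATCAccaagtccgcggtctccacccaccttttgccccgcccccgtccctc
Asns: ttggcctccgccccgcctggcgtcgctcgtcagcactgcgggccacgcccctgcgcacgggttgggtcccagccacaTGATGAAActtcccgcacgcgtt
Pck2: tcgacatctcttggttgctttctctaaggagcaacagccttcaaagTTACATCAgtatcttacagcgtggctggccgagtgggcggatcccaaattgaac
The second set carries the ERSE in the genes of an ER chaperone and a chaperone cofactor: Hspa5 (chr2:34771984-34772083, plus strand) and Creld2 (chr15:88819479-88819578, plus strand).
Hspa5: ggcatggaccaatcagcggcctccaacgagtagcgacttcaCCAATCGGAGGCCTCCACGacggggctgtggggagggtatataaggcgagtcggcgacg
Creld2: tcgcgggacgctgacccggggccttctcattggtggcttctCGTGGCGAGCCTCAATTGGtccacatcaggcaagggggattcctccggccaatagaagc
The third set carries the E2F site in genes of replication and its control that were lower on the high side: Mcm5 (chr8:75109314-75109413, plus strand), Cdc6 (chr11:98907967-98908066, plus strand) and E2f7 (chr10:110745195-110745294, plus strand).
Mcm5: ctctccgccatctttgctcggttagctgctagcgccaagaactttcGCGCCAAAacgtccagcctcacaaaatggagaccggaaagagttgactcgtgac
Cdc6: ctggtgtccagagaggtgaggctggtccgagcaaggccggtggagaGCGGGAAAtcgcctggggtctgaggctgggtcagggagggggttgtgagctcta
E2f7: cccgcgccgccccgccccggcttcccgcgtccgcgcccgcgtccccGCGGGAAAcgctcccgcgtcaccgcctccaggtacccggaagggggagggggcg
The C/EBP-ATF element was found in 7 of 25 ATF4 and CHOP effector genes with a promoter (28.0%), 4 of 18 amino acid genes (22.2%) and 4 of 11 tRNA synthetase genes (36.4%). Among all measured genes its share was 3.92%, and among all 32851 RefSeq promoters it was 3.97%. The ERSE was found in 10 of 36 ER chaperone genes (27.8%) against 0.171% of all measured genes and 0.119% of all promoters. The E2F site was found in 11 of 34 S phase genes (32.4%) and in 0 of 32 mitosis genes, against 2.37% of measured genes and 1.56% of all promoters. Of the genes outside the stress lists that are named below, 2 of 11 higher genes with a promoter, Rab39b and Pck2, had the C/EBP-ATF element, and 2 of 12 lower genes, E2f7 and Mcm3, had the E2F site. A match describes letters in this window and does not show binding. The stress and S phase lists hold genes of functions these regulators are already known to control. Their shares of matches therefore describe the lists and are not a result of these arrays.

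The markers separated the sides by wide margins. Ddit3 (probe set 17237978) stood at 9.06, 9.32 and 9.57 on the high side and at 6.37, 5.79 and 7.35 on the low side. The threshold lies between the 9.06 of Htt siRNA 1 and the 7.35 of scramble 3, and no array lay between them. Trib3, a pseudokinase induced by ATF4 and CHOP, stood at 6.79, 7.16 and 7.57 against 3.01, 3.76 and 4.84. Atf3, a stress transcription factor, stood at 7.11, 7.54 and 8.13 against 5.15, 5.15 and 6.03. Chac1, which degrades glutathione, stood at 5.58, 5.74 and 6.53 against 3.92, 3.81 and 4.48. For all 4 markers scramble 1 was the highest array and scramble 3 the highest of the low side. High minus low was 3.62 for Trib3, 2.91 for Ddit3, 2.36 for Atf3 and 2.07 for Chac1, and it was similar in size within Htt siRNA (3.97, 2.82, 2.18 and 1.74) and within scramble (3.27, 3.00, 2.53 and 2.39). Htt itself did not follow the side, at 4.49, 4.65 and 5.59 against 4.47, 5.60 and 5.72, with a high minus low value of 0.02.

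**Figure D1:**
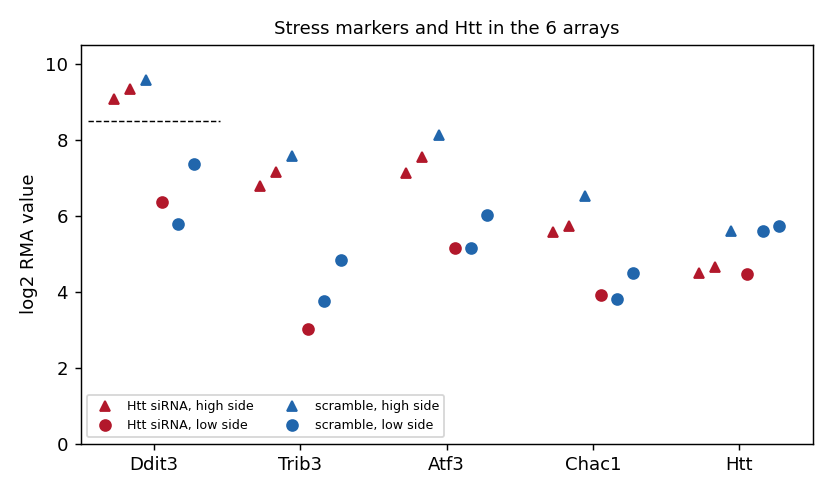
Log2 RMA values (y axis) of the 4 stress markers and Htt (x axis) in each array; each point is 1 array, red for Htt siRNA and blue for scramble, triangles for the high side and circles for the low side, and the dashed line marks the Ddit3 threshold of 8.5. All triangles lie above all circles for the 4 markers, while Htt separates by colour.

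The 6 arrays were alike in overall level, with medians between 2.59 and 2.67, and they correlated with r between 0.981 and 0.991 over probe sets, which are not independent. Myoblast markers were measured at high levels: 10 of 12 lay above the median gene level, and the intermediate filament gene Des stood between 9.92 and 10.35. Levels of the macrophage (2.68 to 2.78), endothelial (2.26 to 2.36), adipocyte (2.80 to 3.04) and epithelial (2.79 to 2.85) marker lists stayed near or below the median gene level of 2.95 in every array. The haematopoietic marker Ptprc lay between 1.96 and 2.22. Single members had a mean above the median gene level. They were 3 of 10 macrophage markers (Cd14, Cd68 and Csf1r), 1 of 9 adipocyte markers (Pparg) and 3 of 10 epithelial markers (Krt19, Krt8 and Epcam), with 0 of 10 endothelial markers. Pparg lay between 5.36 and 6.35, Krt19 between 4.34 and 5.05 and Cd14 between 3.93 and 4.47. The neuronal list lay higher, at 4.92, 5.21 and 5.35 against 5.54, 5.49 and 5.48. Its median difference was -0.12, and 8 of 10 members overlapped between sides. Differences were negative for 9 of 10 members, against 10275 of 22180 genes. The largest were those of the neurofilament genes Nefl (-1.15), which overlapped, and Nefm (-1.10), which did not. The part of the neuronal list in the results below was not tested. The table has no detection calls, so no gene is called absent.

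Without overlap between sides, 2277 of 22180 genes (10.3%) were higher in all 3 high arrays than in all 3 low arrays, and 1544 (6.96%) were lower. Of these, 99 genes (0.446%) were at least 2-fold higher and 33 (0.149%) at least 2-fold lower by the difference within groups. The 2-fold rule has no gap at its edge: Fam71f1 (1.00) lay just inside and Apobec1 (0.99) just outside, and among lower genes Spdl1 (-1.0) was inside and Zgrf1 (-0.99) outside. Because the split used this contrast, nothing is read from these shares. The 10.3% higher and 6.96% lower are the background for each list count without overlap given below. Of the 99 higher genes, 48 belong to the 110 genes of the 4 stress lists and 51 do not, and none of the 33 lower genes belongs to them. Both siRNA groups gave a 2-fold difference for 70 of the 99 and for 5 of the 33. The difference was larger within Htt siRNA than within scramble for 67 of the 99 and for 29 of the 33. The lower count depended on single arrays: it was 186 with scramble 1 left out, 63 with scramble 3 left out and 13 with Htt siRNA 2 left out.

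The known stress genes set the scale for the rest. The effector list includes Ddit3, whose separation was fixed by the split, and the markers Trib3, Atf3 and Chac1. Of 32 measured effectors of ATF4 and CHOP, 26 were higher on the high side without overlap and 0 lower, with a median difference of 1.07 against 0.01 for all genes. Its leading members were Trib3 (3.62), the cysteine-making enzyme gene Cth (3.03), Ddit3 and Atf3, and Creb3l3 (-0.10), which lies below the median gene level, went the other way. ER chaperones and degradation factors had a median of 0.57, with 32 of 41 higher and 0 lower without overlap, led by Sdf2l1 (2.43), Herpud1 (2.29), Dnajb9 (2.05) and Hyou1 (1.61), all ER folding or disposal proteins. Dnajc10 (-0.18), Selenof (-0.07) and Fkbp14 (-0.01) went against that median. Hspa5, the main ER chaperone BiP, whose ERSE is printed above, stood at 9.79, 9.74 and 9.57 against 8.29, 8.34 and 8.56.

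Amino acid supply was the list with the largest median, at 1.37. Of 23 members, 20 were higher without overlap and 0 lower. Cth stood at 8.24, 8.64 and 9.16 against 4.86, 6.41 and 6.95. The cystine transporter gene Slc7a11 stood at 6.41, 6.20 and 7.65 against 2.65, 5.83 and 5.58, so the 2 high Htt siRNA arrays lay slightly above the scramble arrays of the low side, scramble 1 lay well above them, and Htt siRNA 2 lay far below all. The mitochondrial folate enzyme gene Aldh1l2 (1.93) and the alanine aminotransferase gene Gpt2 (1.78) came next, and Shmt1, the cytosolic serine hydroxymethyltransferase, was at -0.14. Asns, the asparagine synthetase whose promoter is printed above, stood at 9.35, 9.37 and 9.32 against 7.46, 8.63 and 8.18. Htt siRNA 2 was the lowest array for 18 of the 23 genes, and without it the median was 0.92. Cytosolic tRNA synthetases had a median of 0.91, with 14 of 18 higher and 0 lower without overlap, led by Wars (1.23), Lars (1.10), Cars (1.08) and Iars (1.02). The synthetases for lysine, glutamine and histidine hardly differed: Kars was at 0.03, Qars at 0.02 and Hars at 0.09.

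**Figure D2:**
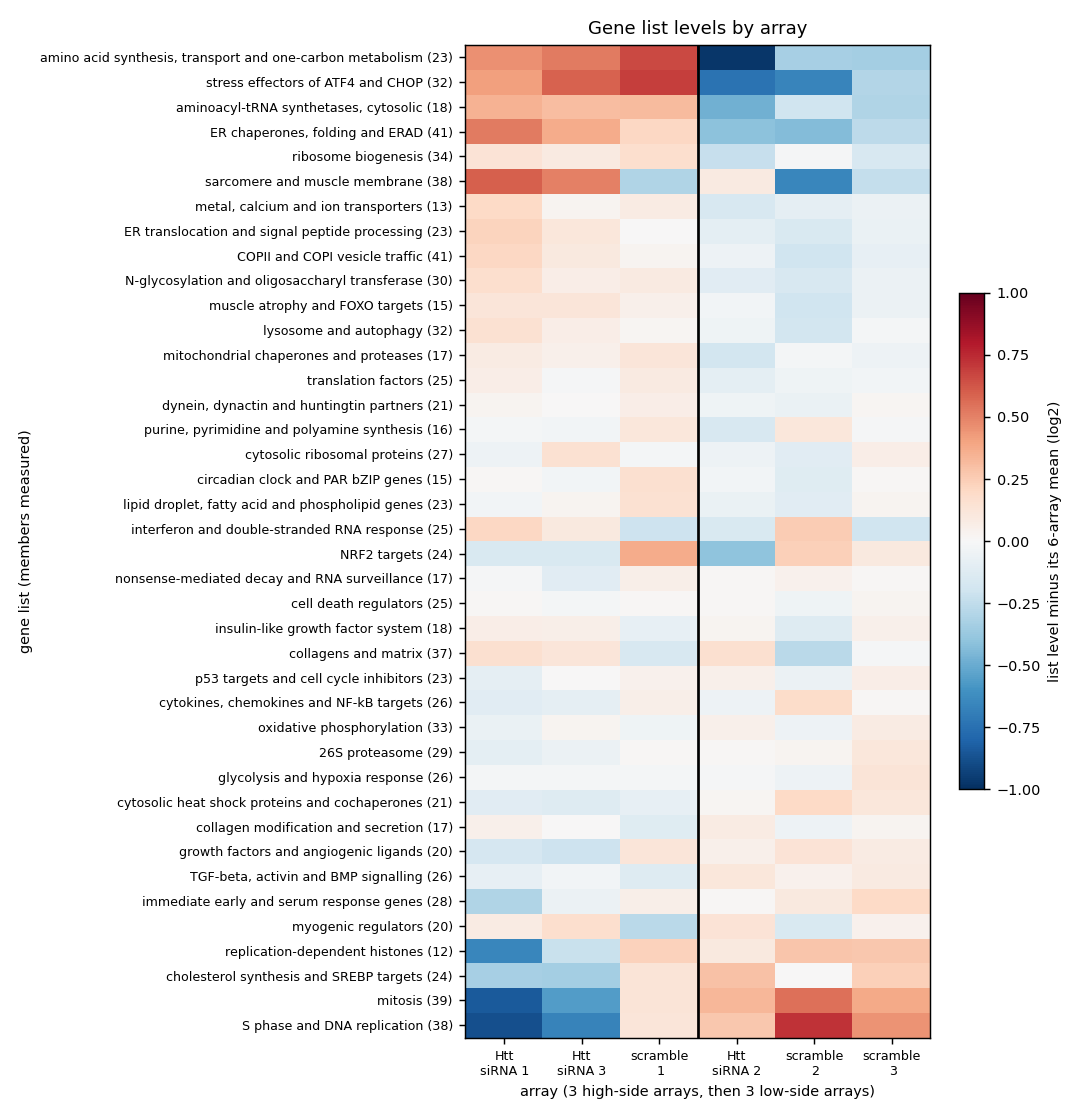
Mean log2 level of each gene list (rows, members measured in parentheses) in each array (columns, 3 high-side arrays left of the line and 3 low-side arrays right of it), as the difference from the list's 6-array mean. Stress and amino acid lists are red left and blue right, S phase and mitosis lists run the other way with scramble 1 between the extremes, and most other lists stay pale.

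Outside those lists, the gene with the largest difference was Acot2, a mitochondrial acyl-CoA thioesterase. It stood at 9.87, 9.91 and 9.72 against 5.95, 6.83 and 7.31, a difference of 3.29 that exceeded those of Ddit3, Atf3 and Chac1. The closely related gene Acot1 stood between 1.86 and 2.54 in all arrays, although probes for such close copies can share signal. Other mitochondrial genes followed. Slc25a33, a pyrimidine nucleotide carrier, stood at 6.10, 5.87 and 6.72 against 4.32, 4.79 and 4.52. Pck2, the mitochondrial phosphoenolpyruvate carboxykinase whose C/EBP-ATF element is printed above, stood at 8.09, 8.26 and 8.12 against 6.0, 6.85 and 6.81. Cox6a2, the muscle form of a cytochrome oxidase subunit, stood at 5.02, 4.59 and 3.91 against 2.81, 3.24 and 2.91. All of these were higher in each high array than in any low array, with differences of 1.87, 1.73 and 1.41.

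Oxidoreductase and haem genes formed a second set. Cyb5r1, a cytochrome b5 reductase, stood at 7.67, 7.78 and 7.30 against 5.38, 5.64 and 5.91. Dhrs9, a short-chain dehydrogenase, stood at 6.88, 6.78 and 7.56 against 4.90, 5.87 and 5.86. Hmox1, the haem oxygenase, stood at 7.71, 7.83 and 7.63 against 5.44, 6.77 and 6.18. In each case Htt siRNA 2 was the lowest array, as it was for 11 of the 15 higher genes named by rule. The differences were 1.93, 1.81 and 1.74.

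Secreted and surface products made up another set. Cdsn, a desmosome-associated adhesion protein known from skin, stood at 7.03, 6.99 and 5.75 against 3.47, 4.14 and 4.46. Car6, a secreted carbonic anhydrase, stood at 7.55, 6.39 and 5.99 against 3.70, 4.38 and 4.56. Both differed more within Htt siRNA (3.54 and 3.27) than within scramble (1.45 and 1.52). Adm2, a peptide hormone of the calcitonin family, stood at 4.01, 4.52 and 5.56 against 2.97, 3.26 and 3.23 and was the reverse, at 1.30 within Htt siRNA and 2.32 within scramble. Whether these differences differed between the siRNA groups was not tested.

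Membrane traffic and cytoskeletal genes were the last set of the 15. Rab39b, a small GTPase of vesicle traffic, stood at 6.87, 6.62 and 6.52 against 4.40, 4.32 and 4.22, with a residual SD of 0.12 after group and side. Dennd4a, which has a DENN domain of the kind that activates Rab GTPases, stood at 6.72, 6.78 and 6.71 against 4.98, 5.31 and 5.20. Stbd1, which tethers glycogen to membranes, stood at 7.24, 7.31 and 7.11 against 5.77, 5.34 and 5.98. Hid1, a protein of secretory granule traffic, and Kif21b, a kinesin motor, differed by 1.37 and 1.36. For some of these, differences within Htt siRNA and within scramble lay close together: 2.34 and 2.25 for Rab39b, 1.50 and 1.45 for Stbd1, and 1.36 and 1.38 for Hid1. Dennd4a differed more within Htt siRNA than within scramble.

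**Figure D3:**
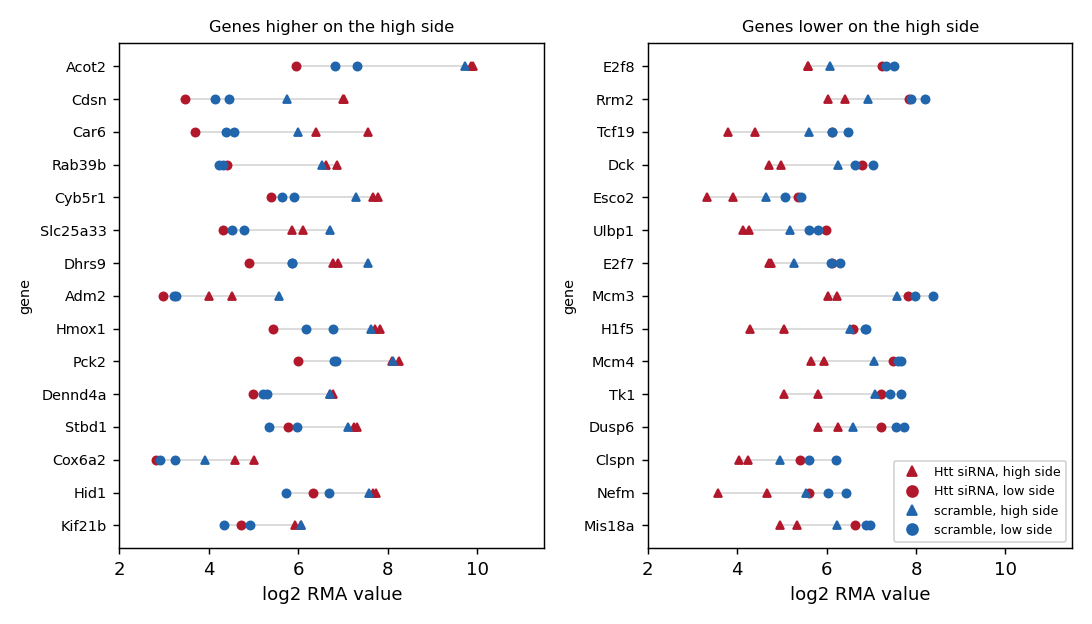
Log2 RMA value (x axis) of the 15 genes outside the stress lists with the largest positive (left) and negative (right) high minus low difference (y axis); each point is 1 array, red for Htt siRNA and blue for scramble, triangles for the high side and circles for the low side, with a grey line over the range. Triangles and circles do not overlap, which the naming rule requires, and on the right both red triangles lie below the blue triangle in every row.

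Genes of DNA replication and mitosis were lower on the high side in both siRNA groups. All 38 S phase genes and all 39 mitosis genes had negative differences, with medians of -0.76 and -0.66. Without overlap between the sides, 26 of 38 and 31 of 39 were lower and 0 were higher. The S phase level was 5.09, 5.29 and 6.09 against 6.23, 6.69 and 6.42, and the mitosis level 6.46, 6.75 and 7.43 against 7.63, 7.86 and 7.68. The 2 high Htt siRNA arrays were the lowest, and scramble 1 lay between them and the low side. In bulk RNA, fewer dividing cells and less of these transcripts per cell cannot be told apart.

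Taken within groups, Htt siRNA 1 and 3 both lay below Htt siRNA 2 for all 38 S phase and all 39 mitosis genes, against 34.8% of all genes. Scramble 1 lay below both other scramble arrays for 37 of the 38 and 33 of the 39, against 29.6% of all genes. The size was unequal: the S phase median was -1.08 within Htt siRNA and -0.45 within scramble, and the mitosis median -1.05 and -0.30. Without Htt siRNA replicate 2, which leaves only the scramble arrays to set the side, the medians were -0.45 and -0.30. Without scramble replicate 1 they were -1.08 and -1.05.

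Among named genes, E2f8 and E2f7, atypical E2F repressors that are themselves made in S phase, were lower on the high side in both groups. E2f8 stood at 5.58, 5.58 and 6.08 against 7.23, 7.50 and 7.33, the largest negative difference of all genes (-1.49). E2f7 stood at 4.76, 4.70 and 5.26 against 6.11, 6.29 and 6.10. Within Htt siRNA and within scramble the differences were -1.65 and -1.34 for E2f8 and -1.38 and -0.94 for E2f7. Nucleotide supply followed: Rrm2, the regulated subunit of ribonucleotide reductase, stood at 6.03, 6.40 and 6.93 against 7.84, 8.21 and 7.88, while the nucleoside kinase genes Dck and Tk1 were at -1.26 and -1.12. For Tk1 the separation was narrow, since scramble 1 (7.09) lay just below Htt siRNA 2 (7.22).

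Helicase and chromosome genes completed the division set. Mcm3 and Mcm4, subunits of the replicative helicase, were at -1.15 and -1.13, with -1.70 and -1.68 within Htt siRNA and -0.60 and -0.58 within scramble. Clspn, the checkpoint adaptor claspin, stood at 4.23, 4.05 and 4.96 against 5.41, 6.20 and 5.60. Esco2, a cohesin acetyltransferase, Mis18a, a centromere licensing factor, and H1f5, a linker histone, were at -1.17, -1.09 and -1.14. In the mitosis list the leading genes were the spindle checkpoint kinase Ttk (-1.03), Aurkb (-0.98), the kinesin Kif22 (-0.95) and Kif20b (-0.91). Tcf19, a growth-regulated nuclear protein, stood at 3.80, 4.40 and 5.61 against 6.13, 6.47 and 6.11. Only 7 of the 33 genes at least 2-fold lower came from the S phase and mitosis lists as written.

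Dusp6, Ulbp1 and Nefm, also named by the rule, are not known for a role in replication. Dusp6, a phosphatase of ERK, stood at 5.80, 6.26 and 6.60 against 7.22, 7.72 and 7.56, with similar differences within Htt siRNA (-1.19) and scramble (-1.04). Ulbp1, a ligand of an activating receptor of natural killer cells, stood at 4.26, 4.13 and 5.17 against 5.99, 5.81 and 5.61. Nefm stood at 3.56, 4.67 and 5.53 against 5.60, 6.44 and 6.03. In Nefm, scramble 1 and Htt siRNA 2 nearly met.

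**Figure D4:**
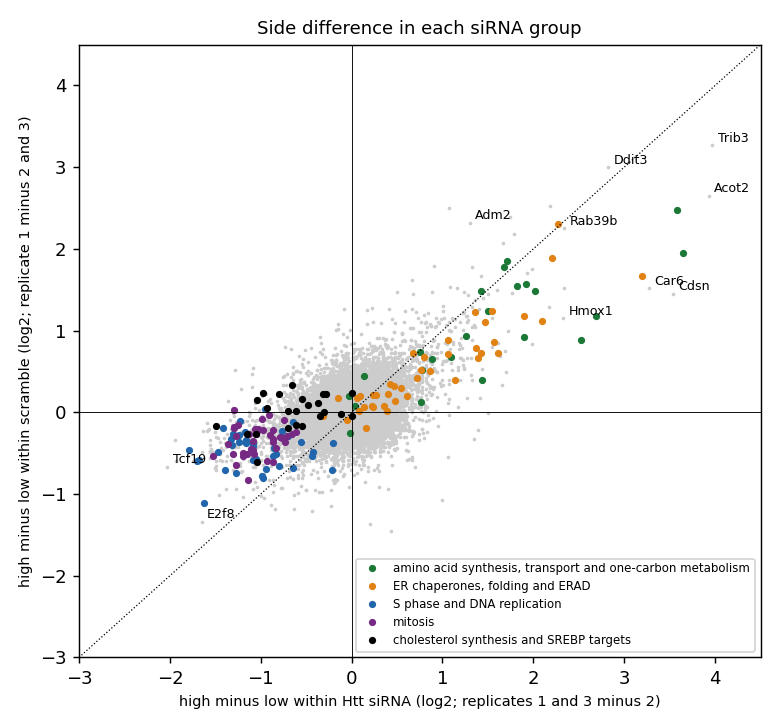
High minus low difference (log2) of each of 22180 genes within Htt siRNA (x axis, replicates 1 and 3 minus replicate 2) and within scramble (y axis, replicate 1 minus replicates 2 and 3); grey points are all genes, coloured points are members of 5 lists, and the dotted line marks equal differences. Stress genes lie upper right and division genes lower left, nearer to zero on the scramble axis, while cholesterol genes spread along the Htt siRNA axis around a scramble median of 0.01.

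Genes that build ribosomes lay higher with stress, while ribosomal protein genes did not. Of 34 ribosome biogenesis genes, 16 were higher without overlap and 0 lower, with medians of 0.36 within Htt siRNA and 0.26 within scramble. Myc, the growth transcription factor, led the list at 7.59, 7.94 and 8.29 against 6.66, 6.89 and 7.38. Its other leading members were the assembly factor genes Wdr74 (0.66), Nop14 (0.57) and Gnl3 (0.55), and only Nop10 (-0.21) was negative. The 27 cytosolic ribosomal protein genes had a median of 0.05, with 4 higher and 1 lower, against 10.3% and 6.96% of all genes. Of 25 translation factor genes, 6 were higher and 0 lower (median 0.09, or 0.14 with either Htt siRNA 2 or Htt siRNA 3 left out).

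Other secretory lists had small positive medians, and their counts stand against 10.3% of all genes higher and 6.96% lower. Without overlap, 9 of 23 translocation and signal peptide genes, 14 of 30 N-glycosylation genes and 16 of 41 vesicle coat and traffic genes were higher, and 0, 1 and 2 were lower, with medians of 0.18, 0.17 and 0.18. The translocation median was 0.09 with Htt siRNA 2 left out and 0.29 with scramble 1 left out. Gnpnat1, an enzyme of the hexosamine pathway that makes sugar donors, stood at 8.82, 8.34 and 8.70 against 7.44, 7.54 and 7.59, and its difference was 1.14 within each siRNA group. Alg12, a mannosyltransferase with an ERSE in its promoter, stood at 7.81, 7.43 and 7.41 against 6.64, 6.59 and 6.76. In the traffic list the leading genes were Ctage5 (0.69), Stx5a (0.64), Mcfd2 (0.60) and Uso1 (0.59), and in the translocation list Sec11c and Ssr4 (both 0.42). Alg14 (-0.27), Arf1 (-0.14) and Arf4 (-0.17) were lower without overlap. Of 32 lysosome and autophagy genes, 7 were higher and 1 lower (median 0.12), led by the autophagy receptor Sqstm1 (0.57) and Wipi2 (0.55).

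Cytosolic heat shock genes lay slightly lower as a list, unlike the chaperones of the ER, and most overlapped between the sides. Of 21 measured, 19 had negative differences, against 10275 of 22180 genes, and the median was a small -0.10. Without overlap, 7 were lower and 0 higher, against 6.96% and 10.3% of all genes, and 14 overlapped. With Htt siRNA 2 left out, which leaves the scramble arrays alone to set the side, the median was -0.25. Hspa1b, an inducible HSP70, stood at 5.49, 5.18 and 5.40 against 6.22, 6.64 and 6.41. Hsph1 (-0.49), the cochaperone Stip1 (-0.34) and Hspa4l (-0.33) followed, while Hspa1a, a near copy of Hspa1b with which it can share probes, was at 0.06 and Hspbp1 at 0.04. In mitochondria, Lonp1, the matrix protease, stood at 7.95, 7.72 and 7.68 against 6.52, 7.03 and 7.01, and 4 of 17 mitochondrial chaperones and proteases were higher and 1, Phb2 (-0.13), lower. The 29 proteasome genes had a median of -0.08, with 0 higher and 3 lower, against 10.3% and 6.96% of all genes. Nfe2l1, a transcription factor of proteasome genes, which was chosen after its values were seen, stood at 7.72, 7.80 and 7.76 against 6.72, 6.57 and 6.82.

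Cholesterol synthesis genes were lower with stress in the Htt siRNA arrays and level in the scramble arrays. Their level was 6.54, 6.53 and 7.0 against 7.16, 6.87 and 7.11, so scramble 1 lay among the low arrays. The median was -0.61 within Htt siRNA and 0.01 within scramble, and without Htt siRNA replicate 2 it was 0.01, so the overall median of -0.29 rests on that array. Htt siRNA 1 and 3 both lay below Htt siRNA 2 for 22 of 24 genes, against 34.8% of all genes. Scramble 1 lay below both other scramble arrays for 6 of the 24 and above both for 8, against 29.6% and 38.5% of all genes. Insig1, the sterol sensor, stood at 7.22, 7.0 and 8.30 against 8.59, 8.27 and 8.69, and Stard4, a sterol carrier, at 4.26, 4.29 and 4.88 against 5.31, 5.28 and 5.68. Hmgcs1 (-0.70) and Hsd17b7 (-0.66) were the next in size, and Mvd (0.12) was the member above 0. Whether the difference between siRNA groups exceeds their spread was not tested.

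Muscle genes mixed the side with the siRNA group. The sarcomere list had a median of 0.25, or 0.43 with scramble 1 left out and 0.38 with scramble 3 left out. Without overlap, 4 of 38 were higher and 0 lower, a share near the 10.3% of all genes. Its level was 4.93, 4.83 and 4.02 against 4.42, 3.68 and 4.09, so scramble 1 lay below Htt siRNA 2 and scramble 3. Mylpf, the fast myosin regulatory light chain, stood at 6.36, 6.26 and 3.92 against 4.65, 2.92 and 4.24, and Tnni1, slow troponin I, at 5.27, 4.87 and 3.88 against 3.76, 3.23 and 3.61. Myom2 (0.88) and Tnnt3 (0.80) had the next largest values. Among 20 myogenic regulators, 1 was higher and 4 lower without overlap. Myf5, an early myogenic transcription factor, stood at 8.70, 8.63 and 8.72 against 7.86, 7.38 and 7.89, with little spread on the high side. Id2, which blocks myogenic factors, stood at 5.71, 5.88 and 5.26 against 6.42, 6.62 and 6.25. Myog, the factor of terminal differentiation, overlapped (7.73, 7.71 and 4.53 against 6.22, 3.97 and 5.11), as did Myod1 (-0.35).

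Lists of other stress systems had medians near 0. Of all genes, 10.3% were higher and 6.96% lower without overlap. The hypoxia, cell death and p53 lists held more than those shares of both higher and lower members. Of 24 NRF2 targets, 2 were higher without overlap, Slc7a11 and Hmox1, and 1 was lower, Txn1 (-0.15), with a median of 0.02; the quinone reductase Nqo1 stood at 5.84, 6.06 and 7.93 against 6.83, 8.36 and 7.74. The glycolysis and hypoxia list had 4 higher and 5 lower members (median -0.08): Ndrg1 stood at 9.57, 9.64 and 9.55 against 8.41, 8.14 and 8.74, and the angiogenic factor Vegfa at 8.66, 8.77 and 8.94 against 7.84, 8.05 and 8.19. Egln3, an oxygen sensor, ran the other way at 6.41, 5.88 and 6.56 against 7.01, 7.63 and 7.42. Cell death regulators (4 higher and 4 lower of 25, median 0.01, or -0.02 after repeated quantile normalization) and p53 targets with cell cycle inhibitors (3 higher and 4 lower of 23, median -0.01) showed no common direction, and Cdkn1a, the inhibitor p21, stood between 9.36 and 9.94 in all arrays. Oxidative phosphorylation genes (median -0.05) and collagens with matrix genes (0.00) were also near 0.

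Signalling lists were mixed, and their counts stand against 10.3% of all genes higher and 6.96% lower without overlap. Of 28 immediate early genes, 6 were lower without overlap and 0 higher (median -0.17), led by Dusp6, Errfi1 (-0.76) and Egr1 (-0.59), while Klf4 (0.95) and Jund (0.36) ran against it with overlap between sides. Of 26 TGF-beta and activin genes, 5 were lower and 0 higher (median -0.17), including Id2 and the matricellular gene Ccn2 (-0.68). Its median was -0.11 with Htt siRNA 2 left out and -0.10 with scramble 3 left out. The insulin-like growth factor list had a median of 0.00, with 9 positive and 9 negative differences, and 3 of 18 higher and 1 lower without overlap. In it, Irs1, the insulin receptor substrate, stood at 6.35, 6.27 and 5.85 against 7.16, 6.88 and 7.18, while the binding protein gene Igfbp4 was at 0.70. Of 13 metal, calcium and ion transport genes, 6 were higher and 2 lower without overlap, with a median of 0.22, or 0.10 with Htt siRNA 2 left out. Slc40a1, the iron exporter ferroportin, stood at 5.92, 5.93 and 5.63 against 4.61, 4.08 and 4.61, and Tfrc, the transferrin receptor, at 5.79, 5.01 and 5.98 against 6.27, 7.08 and 6.54.

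The labelled comparison, Htt siRNA against scramble, was tested with limma with and without the side as a term, to ask how far the split bears on it. The side was taken from the same data, so the p-values with it do not allow for its choice. With the side, 4 of 22180 genes (0.018%) passed a Benjamini-Hochberg adjusted p of 0.05, 1 higher and 3 lower, and repeated quantile normalization gave 9 higher and 4 lower. Without it, limma called 0 genes (0.0%). At an unadjusted p under 0.05 the counts were 2545 with the side and 2409 without. Single arrays decided these counts. With the side, leaving out Htt siRNA 2 gave 45 called genes, leaving out scramble 3 gave 83 and leaving out scramble 1 gave 1. Dropping any of Htt siRNA 1, Htt siRNA 3 and scramble 2 gave 0. With the group only, 540 genes were called once Htt siRNA 2 was dropped and 1 once scramble 1 was, and 0 for the other arrays.

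All 4 genes called with the side separated the siRNA groups without overlap. Htt fell by 1.11 ± 0.10 (log2, SE, adjusted p = 0.0431 in limma), a knockdown present on both sides. C1qtnf3, which encodes a secreted protein of the C1q family, stood at 6.94, 7.17 and 6.96 in Htt siRNA 1, 3 and 2 and at 5.13, 4.76 and 5.46 in scramble 1, 2 and 3, and rose by 1.89 ± 0.18. Serpinb9e stood at 2.03, 2.49 and 2.43 against 5.80, 4.81 and 4.77 and fell by 2.95 ± 0.25; it belongs to a cluster of near-identical serine protease inhibitor genes, so its probes may read relatives. Plet1, a surface protein, stood at 3.35, 3.50 and 3.26 against 4.70, 4.53 and 4.23 and fell by 1.20 ± 0.12. The 4 shared the adjusted p of 0.0431 in limma. Over the alternatives run it lay between 0.0185 and 0.254 for Htt, 0.00618 and 0.372 for C1qtnf3, 0.00745 and 0.197 for Serpinb9e, and 0.0133 and 0.405 for Plet1.

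Adding the side moved the group difference of the stress lists and of the division lists. The median Htt siRNA minus scramble of the amino acid list went from 0.05 to -0.36, that of the ATF4 and CHOP effectors from 0.18 to -0.15, and that of the ER chaperones from 0.26 to 0.08. The S phase median went from -0.88 to -0.64 and the mitosis median from -0.72 to -0.47. With the side, 34 of 38 S phase and 30 of 39 mitosis genes had an unadjusted p under 0.05 in limma. Among all genes the count was 2545 of 22180. In each of the S phase and mitosis lists, 0 genes passed the adjusted threshold. Members of a list were read from the same arrays, which also set the side. They are not independent, so these counts do not test the list. The sarcomere median moved little, from 0.69 to 0.62, as did that of the NRF2 targets, from -0.40 to -0.44.

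**Figure D5:**
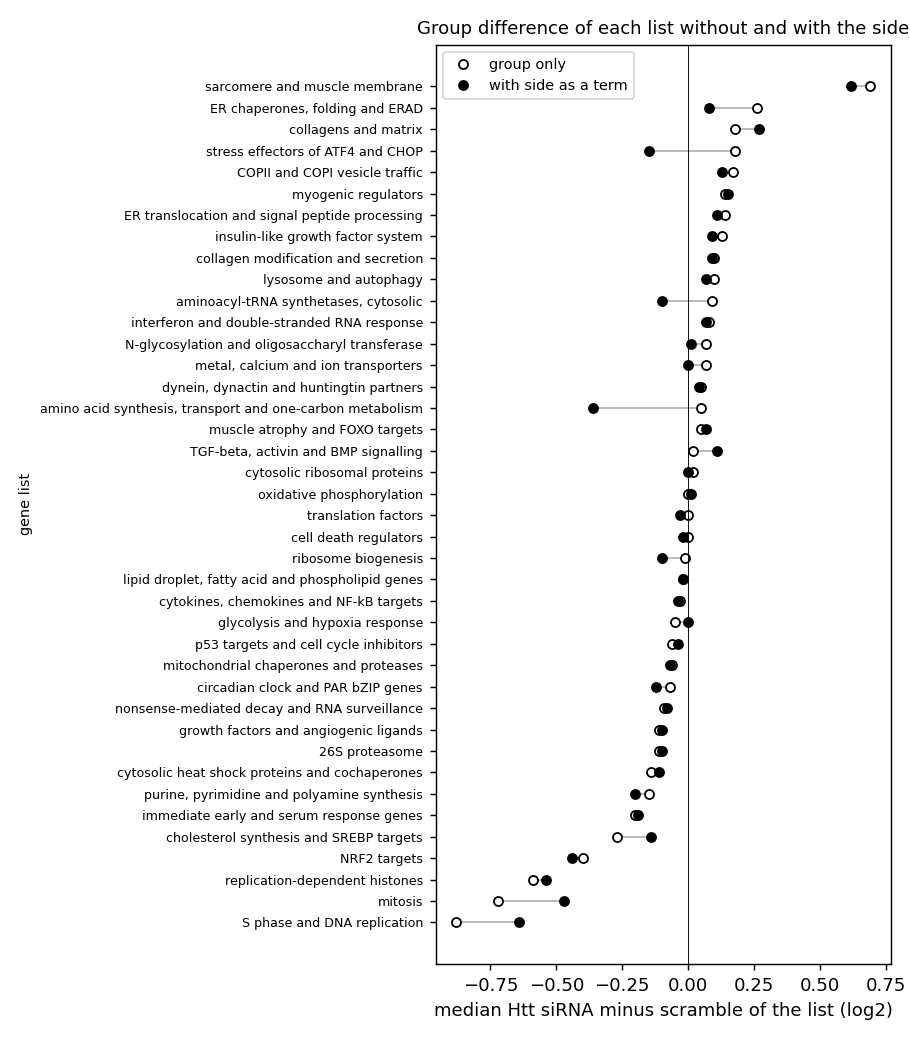
Median Htt siRNA minus scramble difference (x axis, log2) of each gene list (rows), fitted with the group only (open circles) and with the side as a further term (filled circles), joined by a grey line. The longest lines belong to the amino acid list (0.05 to -0.36) and the ATF4 and CHOP effectors (0.18 to -0.15), and most other lists stay in place.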

How the data were processed

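Total RNA of 6 C2C12 samples was measured on Affymetrix arrays, 3 with Htt siRNA and 3 with scramble siRNA. The authors deposited log2 expression values for 41345 probe sets, made with RMA and the affy package per the submitters' processing notes, which give no versions. RMA includes quantile normalization, which hides any shift in total RNA per cell and compresses weak signals. The platform annotation gave 23521 probe sets 1 gene symbol, 1814 several and 16010 none here; 23328 of the first matched a RefSeq gene table by Entrez identifier. The single-symbol probe set with the highest mean stood for each of 22180 genes, of which 1082 had several.

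High minus low is the coefficient of side in limma 3.58.1 (R 4.3.3) with group and side as terms, given without a test. Htt siRNA minus scramble was tested with lmFit and eBayes, two-sided, with Benjamini-Hochberg adjustment over all 22180 genes and a threshold of 0.05; the fit was tested on simulated data. With 3 arrays a group, precision is limited by their number. The 46 gene lists held 1183 entries, of which 1073 were measured. The markers, lists and members were chosen with earlier results of these data known. Named genes are the markers and Htt, the 15 genes per direction outside the stress lists with the largest difference, without overlap and above the median gene level, up to 4 members per list by size with members that go against its median, and genes called with the side. Genes without an assigned name and small RNA genes were skipped. Hspa5, Creld2, Asns, Mcm5, Cdc6, Kars, Qars, Hars, Acot1, Myod1, Cdkn1a, Ptprc and Nfe2l1 were chosen after their values were seen. So were the macrophage, adipocyte and epithelial markers named for lying above the median gene level. Same-numbered replicates had correlated deviations of 0.350, 0.364 and 0.006. The values for numbers 1 and 2, which also share a side, were the highest of any pairing. That for number 3 was not, so the numbers were not taken as pairs. Probe sets with no or several symbols (17824) gave 1180 higher and 867 lower without overlap and are not named. Tables and plots used Python 3.11.15, pandas 2.3.3 and matplotlib 3.10.9.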

Additional observations from a re-analysis of the deposited data

Results flagged for a closer look

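Within Htt siRNA and within scramble, 3 flagged values ran in opposite directions on the high side, and the difference was not tested for any of them. They are not the only ones: Myod1 (0.15 and -0.85) and Hey1 (0.29 and -0.64) also did so. The interferon and double-stranded RNA response list (25 genes) was 0.30 higher on the high side within Htt siRNA and -0.23 within scramble, a difference of 0.54. The nonsense-mediated decay list (17 genes) was at -0.06 and 0.04, a difference of -0.10, and its median differences were -0.08 and 0.10. Htt was at 0.10 and -0.07, a difference of 0.17.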

How the results depend on the processing

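The count of genes at least 2-fold higher on the high side (99) stayed between 70 and 135 in all alternatives run. The count of those at least 2-fold lower (33) was 13 with Ddit3 as a continuous covariate, 72 with no group term, and 13 to 186 when each array was left out in turn. The 4 genes called for Htt siRNA against scramble with the side became 0 with array weights, 8 with arrays centred on their medians, 17 with an intensity trend, 22 above the median level, 48 with the mean of the 4 stress markers as covariate, 13 with repeated quantile normalization, and 0 to 83 when each array was left out. The 0 genes called with the group only became 1 with array weights, 3 with centred arrays, 3 above the median level, 3 with repeated quantile normalization, and 0 to 540 when each array was left out. With the replicate number as a block, the count was 14 with the side and 98 with the group only. Scramble 3 correlated best with Htt siRNA 2 (0.138), not with its own number, so the block is not given elsewhere. Under the block the side difference rests on replicate 3, the only number split between the sides. The S phase median was then -0.40, mitosis -0.37, ER chaperones 0.34 and immediate early genes -0.00. The ATF4 and CHOP effectors stayed at 1.05 and the amino acid list at 1.33. Of 597 list medians under alternatives (46 lists), 506 moved by less than the spread between replicates, 88 moved further and 3 changed sign from a median of at least 0.2 in size: the cholesterol list was 0.01 without Htt siRNA replicate 2 (-0.61 to 0.01 over arrays left out), and under the replicate block the sarcomere list was -0.14 and the histone list 0.03. Smaller medians changed sign too: under the block the vesicle traffic list was -0.04 and the lysosome list -0.07 (N-glycosylation 0.02, translocation 0.06), and the other 28 changes of sign came from medians of at most 0.09 in size. Of 442 values of 34 named genes, 369 moved by less than that spread, 72 moved further and 1 reversed, Nefm at 0.04 under the replicate block. For the 4 called genes, 27 of 52 alternatives kept the call and 25 lost it with the same direction. Where the cause of a change is not the smaller number of genes or arrays, the cause was not tested. Leaving out Htt siRNA replicate 2 or scramble replicate 1 leaves 1 siRNA group alone to set the side difference.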

Other observations

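Host genes of small nucleolar RNAs, chosen after their values were seen, lay higher on the high side. Of 13 numbered Snhg genes above the median gene level, 9 were higher in all 3 high arrays than in all 3 low arrays and 0 lower. Among all genes, at any level, the shares were 10.3% and 6.96%. The median difference of the 13 was 0.34. Snhg12 stood at 6.03, 6.36 and 6.0 in Htt siRNA 1, Htt siRNA 3 and scramble 1 against 4.64, 4.60 and 5.10 in Htt siRNA 2, scramble 2 and scramble 3, a difference of 1.35. Zfas1, a further host gene, stood at 7.54, 7.86 and 7.54 against 6.63, 6.42 and 7.12. In the nonsense-mediated decay list, 0 of 17 genes were higher and 2 lower without overlap.

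Single genes from other lists, again chosen after their values were seen, also separated the sides. Their lists did not share a direction: the lipid droplet, fatty acid and phospholipid list had a median of 0.03 with 16 of 23 genes overlapping, and the collagen and matrix list a median of 0.00 with 32 of 37 overlapping. Chka, the choline kinase that opens phosphatidylcholine synthesis, stood at 7.22, 7.31 and 7.72 against 6.01, 6.31 and 6.76, and Gpat3, a glycerol phosphate acyltransferase, at 5.39, 5.44 and 5.99 against 4.41, 4.74 and 4.64. Thbs1, the matrix protein thrombospondin, stood at 8.93, 8.61 and 8.17 against 9.73, 9.07 and 9.37, and Ccnd1, the cyclin of G1, at 6.83, 6.77 and 7.50 against 7.86, 8.39 and 8.31. Casp4, an inflammatory caspase, stood at 4.82, 4.75 and 4.91 against 4.10, 4.16 and 4.08, while the other members of the cell death list showed no common direction.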
